A study of Drosophila melanogaster with 60 samples.

Results

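Of the 8908 stretches of the Drosophila genome that lay under a Pho peak in every control list, 5747 (64.5%) carried neither histone mark and are called unmarked Pho regions here. They were selected on measured peaks: the 3 control Pho lists were intersected base by base, and a region was kept when it touched an H3K27ac peak in fewer than 2 of the 3 control H3K27ac lists and an H3K27me3 peak in fewer than 2 of the 3 control H3K27me3 lists. The other shared regions were 1418 at acetylated chromatin, 1178 in H3K27me3 chromatin and 565 with both marks. The series used chromatin immunoprecipitation and sequencing on nuclei isolated by INTACT, in which a driver tags the nuclei of 1 tissue so that they can be pulled out of an embryo lysate, and it examined the Hox protein Ubx in mesoderm and neurons. In the degradation group (twi-INTACT, Mef2>Nslmb,GFP-Ubx) Mef2 drove Nslmb, a degrader that targets GFP fusions, in the muscle lineage. The control group (twi-INTACT; UAS-Nslmb,GFP-Ubx) carried the same GFP-tagged Ubx and the same degrader without a driver. Both groups were mesodermal nuclei of embryonic stages 14 to 17, captured through the twist-driven tag, with 3 lists for each of Pho, H3K27ac and H3K27me3. Nothing in the labels says how many embryos went into a library or whether the replicates were separate collections, so the p-values measure the spread between these samples.

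Pho (Pleiohomeotic) is a zinc finger protein that binds DNA at sites with the core GCCAT and, with its partner Sfmbt, helps to anchor Polycomb complexes at Polycomb response elements. H3K27me3 is the mark laid down by Polycomb repressive complexes over silent developmental genes, whereas H3K27ac marks active promoters and enhancers, so the same lysine carries one mark or the other.

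Some of the strongest unmarked regions are shown because they span the range of places found: 2 coding exons, unannotated DNA on X, a tandem repeat and a retrotransposon. They come from the regions of at least 100 bp with the highest mean percentile of −log10 q over the control Pho lists, and the bases are from RefSeq's release 6 assembly (dm6), plus strand, with capitals where the Pho core GCCAT or its reverse complement occurs.
Nepl21 coding exon, chr3R:28885340-28885623: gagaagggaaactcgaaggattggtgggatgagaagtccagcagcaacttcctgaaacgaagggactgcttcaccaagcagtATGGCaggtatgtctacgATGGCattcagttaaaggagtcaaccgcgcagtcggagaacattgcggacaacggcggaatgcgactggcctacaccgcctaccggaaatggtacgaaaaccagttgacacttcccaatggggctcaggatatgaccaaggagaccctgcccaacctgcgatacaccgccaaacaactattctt
Msp300 coding exon, chr2L:5167344-5167520: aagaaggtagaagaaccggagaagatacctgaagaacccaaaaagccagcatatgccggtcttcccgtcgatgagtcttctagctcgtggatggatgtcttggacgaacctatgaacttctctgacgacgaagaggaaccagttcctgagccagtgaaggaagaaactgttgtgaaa
X intergenic, chrX:23534513-23534637: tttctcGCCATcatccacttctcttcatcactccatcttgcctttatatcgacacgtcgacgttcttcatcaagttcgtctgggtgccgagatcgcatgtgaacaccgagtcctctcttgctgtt
3R tandem repeat, chr3R:37845-38120: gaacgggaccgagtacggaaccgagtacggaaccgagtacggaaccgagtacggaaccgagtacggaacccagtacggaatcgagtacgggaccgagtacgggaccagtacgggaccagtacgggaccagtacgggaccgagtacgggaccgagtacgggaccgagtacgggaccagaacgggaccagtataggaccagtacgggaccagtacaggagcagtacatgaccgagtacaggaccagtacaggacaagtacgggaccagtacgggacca
R1A1 element on X, chrX:23223976-23224197: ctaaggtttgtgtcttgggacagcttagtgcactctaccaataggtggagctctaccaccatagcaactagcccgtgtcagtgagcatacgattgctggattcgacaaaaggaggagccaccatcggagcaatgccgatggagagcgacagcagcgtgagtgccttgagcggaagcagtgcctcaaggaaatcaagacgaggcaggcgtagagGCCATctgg
The Nepl21 exon held 2 copies of the core, the X intergenic region 1 and the R1A1 element 1, whereas the Msp300 exon and the tandem repeat held 0. The Nepl21 region lay 1789 bp from the start of Nepl21, a gene of the neprilysin-like peptidase family, in an exon that the annotation also gives to CG33203. Its authors' fold enrichment was 2.24, 2.10 and 2.26 in control Pho lists 1 to 3, and it lay in a peak of 3 of the 3 degradation Pho lists. The Msp300 region, in the gene for a giant nesprin that anchors muscle nuclei, had folds of 2.01, 2.23 and 2.48 in the control lists and was in 2 of the 3 degradation lists. The X intergenic region lay 428572 bp from the nearest start site, that of ATbp, and had folds of 1.49, 2.35 and 1.44 in the control lists. It lay in peaks of both late mesoderm Ubx lists and of 3 degradation Pho lists. The 3R tandem repeat was masked as repeat over its whole length, with 59.8% GC, and had folds of 1.57, 1.83 and 1.33 in the control lists. Each of the 4 regions other than the Msp300 exon touched 1 control H3K27ac list and 1 control H3K27me3 list, which the rule allows.

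The control Pho lists held 53805, 53696 and 61534 peaks over 14.4, 14.2 and 18.5 Mb, and the degradation Pho lists 52446, 45668 and 56274 peaks over 14.2, 11.9 and 15.04 Mb. The 8908 shared regions made up 8.03%, 8.14% and 6.26% of the bases of control lists 1 to 3. H3K27ac and H3K27me3 lists of these groups covered 7.71 to 26.9 Mb, with no read depth in the lists. The peaks of H3K27ac control 3 carry the name of another replicate inside the list; the label was followed, and without this list 6331 regions were unmarked, 17.6% of them within 1 kb of a start site. As a check of the tissue, H3K27ac peaks covered on average 43.3%, 24.7% and 12.6% of the start-site windows of 12 muscle markers in the degradation lists and 30.8%, 29.4% and 7.54% in the control lists. For 8 neuronal markers these means were 13.5%, 10.3% and 5.21% in the degradation lists, against 11.9%, 2.04% and 6.51% in the control lists. Over all genes they were 19.3%, 23.5% and 11.2% in the degradation lists and 18.9%, 26.3% and 7.66% in the control lists, so muscle markers were above all genes in 5 of the 6 lists and below them in control 3. The 8 hemocyte and fat body markers stood at 23.4%, 17.7% and 8.07% in the degradation lists and 23.1%, 18.1% and 4.12% in the control lists. The 4 glial markers ranged from 0.963% to 22.6% in degradation and from 0% to 5.46% in control lists.

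Unmarked regions were short, which follows in part from the intersection. Their median length was 83 bp, with a range of 1 to 953 bp; 2439 reached 100 bp and 313 were under 10 bp. Together they spanned 607.6 kb, or 0.442% of the genome. Their Pho peaks were modest: the authors' fold had medians of 2.00, 1.98 and 1.95 and the −log10 q medians of 1.67, 1.76 and 1.75 in control lists 1 to 3. Acetylated regions had median folds of 1.99, 1.97 and 1.95 and median −log10 q of 1.69, 1.77 and 1.79 in the same lists, so the peaks of the 2 classes were of like strength by these values. Regions with both marks had lower folds, with medians of 1.81, 1.90 and 1.74, and higher −log10 q, with medians of 1.91, 2.12 and 2.06.

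Coding sequence was the commonest setting of the unmarked regions. The midpoints of 2335 (40.6%) lay in coding exons, against 16.6% of the bases of the genome. Whole Pho lists were also above the genome. Coding exons held 32.7%, 24.7% and 32.9% of all peak midpoints in the control lists and 33.7%, 35.6% and 31.1% in the degradation lists. Of the unmarked regions, 1606 (27.9%) were in introns and 1578 (27.5%) were intergenic. Acetylated regions were more often in coding exons (52.4%), and regions in H3K27me3 (18.7%) or with both marks (13.3%) less often. Near start sites their share was close to that of the genome: 962 unmarked regions (16.7%) lay within 1 kb of the start of a protein-coding gene, against 45.8% of acetylated regions and 16.1% of genome bases. The median distance to the nearest start site was 4640 bp for unmarked, 1194 bp for acetylated, 8007 bp for H3K27me3 and 19815 bp for doubly marked regions. The exon midpoints fell in coding blocks with a median length of 784 bp, against 727 bp for 300-bp windows of the genome with coding midpoints. They were spread over 1983 genes, of which 1698 held a single one and 4 held 5 or more. Those 4 genes were named after their counts were seen. They were Msp300 with 7 regions and Obsc (obscurin, a giant protein of the muscle M-band) with 6. LRP1 and dpy (dumpy, a giant extracellular matrix protein) had 5 each. In this order their coding sequence spans 65.7, 12.7, 14.3 and 68.8 kb, with 0.106, 0.474, 0.350 and 0.0726 regions per kb. All coding sequence held 10.2 midpoints per 100 kb, so the Msp300 count was near that density and the dpy count below it.

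**Figure D1:**
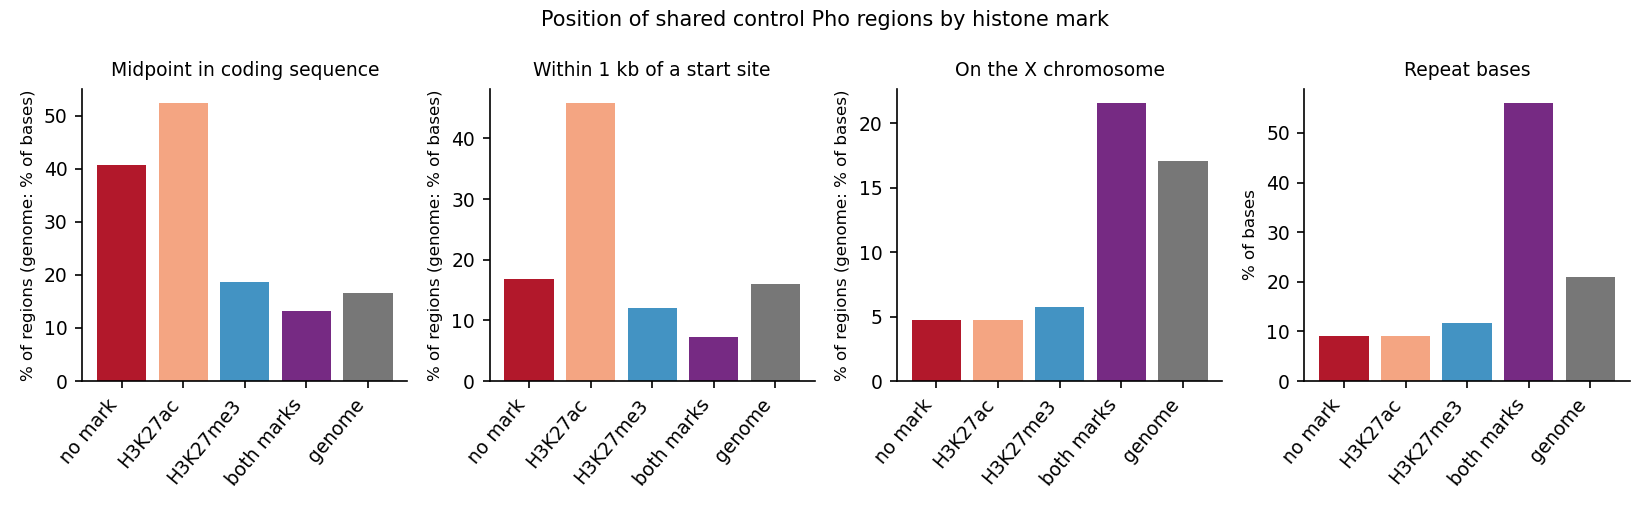
Bars give, for Pho regions with no mark, with H3K27ac, with H3K27me3 and with both, and for the genome, the percent in coding sequence, within 1 kb of a start site, on X and in repeats (percent of regions, or of bases for the genome and the repeats). Regions with no mark stood at 40.6% coding and 16.7% near start sites, and at 4.77% on X against 17.1% of the genome.

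Unmarked regions were scarce on the X chromosome. X held 274 of them (4.77%) but 17.1% of the genome, which is 11.6 per Mb. The arms 2L, 2R, 3L and 3R held 44.4 to 55.7 per Mb, chromosome 4 held 18.5 and Y 37.1. In full megabases with under 50% repeat bases, X had a median of 7 unmarked regions (3 to 51, 23 bins), whereas the medians of 2L, 2R, 3L and 3R were 44, 58, 46 and 48. The lowest megabase of these 4 arms held 23 regions, which is above the X median. Acetylated regions (4.72% on X) and H3K27me3 regions (5.77%) had like shares. Doubly marked regions had 122 (21.6%) on X, but 89 of these lay in the last 0.542 Mb of the chromosome. Outside that stretch X held 4.32% of unmarked, 3.84% of acetylated, 5.29% of H3K27me3 and 6.93% of doubly marked regions. It was also present in whole lists: X held 7.19%, 7.27% and 8.67% of all peaks in the degradation Pho lists, and 9.17%, 8.53% and 8.73% in the control Pho lists. The H3K27ac lists of the same groups placed 10.1%, 14.7% and 13.1% of their peaks on X in degradation, and 7.67%, 14.5% and 9.79% in control. The share of X in the sequenced nuclei and in the inputs was not analysed here, so its part in the X values was not tested.

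**Figure D2:**
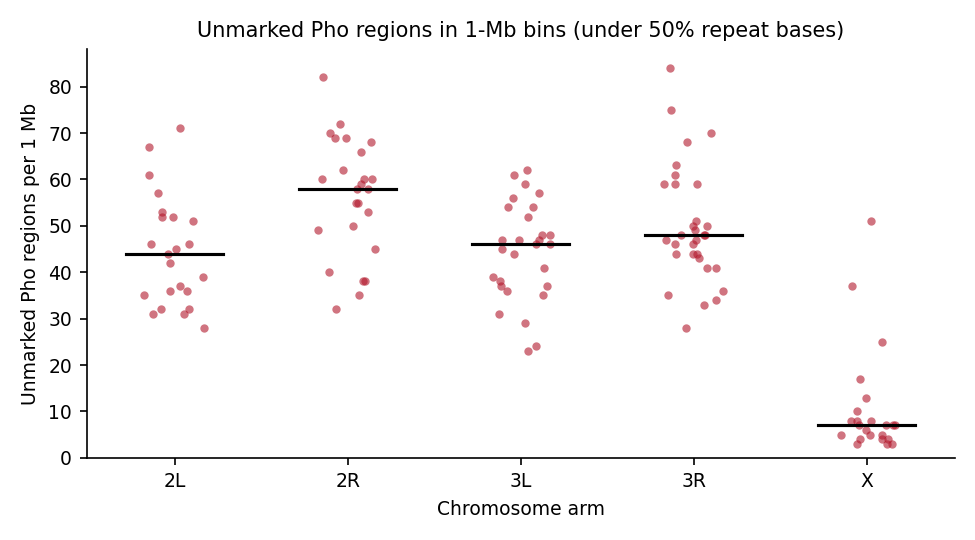
Each point is a full 1-Mb bin with under 50% repeat bases, placed by chromosome arm (x axis) and by its number of unmarked Pho regions (y axis), with black bars at the medians. X bins have a median of 7, against 44 to 58 on the 4 other arms.

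The same draw was made from the 9 lists of the degradation embryos, with their own histone lists in the rule, to see which features return in other libraries. It gave 9747 shared Pho regions and 5894 unmarked ones (60.5%), against 8908 and 5747 (64.5%) in the control draw. Coding midpoints made up 42.0% in the degradation draw and 40.6% in the control draw. The shares within 1 kb of a start site were 17.7% and 16.7%, and those on X 4.38% and 4.77%, for the degradation and the control draw. Repeats differed, at 20.7% of bases in the degradation draw and 9.03% in the control draw. Few members overlapped between the draws: 346 degradation-drawn regions (5.87%) overlapped a control-drawn unmarked region, and 349 control-drawn regions (6.07%) a degradation-drawn one. A region can leave a draw through its Pho peaks or through its histone class, and the overlap of all shared regions was not measured. All 3 degradation Pho lists held 9.14% of the control-drawn unmarked, 15.8% of acetylated, 14.8% of H3K27me3 and 49.2% of doubly marked regions. By this count unmarked regions returned least, acetylated and H3K27me3 regions somewhat more often, and doubly marked regions most often. Unmarked regions also had the lowest median length of the classes and doubly marked regions the highest. The part of length in this order was not tested. Each draw is a single one, so these differences have no test.

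The repeat share of the unmarked set depended on the lists used. Repeat bases, taken as the soft-masked bases of the assembly, made up 9.03% of unmarked bases, against 9.12% of acetylated, 11.6% of H3K27me3 and 56.1% of doubly marked bases and 20.9% of the genome. With lists cut to their better-scored 50% the unmarked share was 21.5%, above that of the genome, and without control Pho replicate 3 it was 13.7%. In all, 4206 regions (73.2%) held no repeat base and 325 (5.66%) were at least 50% repeat. Annotated transposons were touched by 299 regions (5.20%), with 5.91% of the genome annotated as transposon. The families with most were the retrotransposons gypsy and jockey with 21 regions each, 3S18 with 15 and GATE with 13, where gypsy copies are 0.787% and jockey copies 1.89% of transposon bases. TART-A, a retrotransposon of chromosome ends, had 9 regions with 0.337% of transposon bases. Y held 62 of the 325 repeat-rich regions, which is 45.6% of the unmarked regions there. The repeat-rich regions lay far from genes, with a median of 51563 bp to the nearest start site, against 4189 bp for the other unmarked regions. The masking is incomplete, as a look at the 10 strongest regions of at least 100 bp with under 10% repeat bases outside 2R and Y shows. Of these, 1 at chr3L:24464688-24464799 had 0% masked bases and lay in an annotated gypsy element. Of these 10 regions 8 were intergenic, and 4 lay on X.

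Unmarked regions were richer in GC than the genome. Their bases were 51.6% GC, against 42.1% in the genome, and acetylated, H3K27me3 and doubly marked regions were close to them at 53.2%, 52.5% and 52.5%. Windows of 300 bp centred on them had 50.5% GC, and windows 1 kb to either side 43.9%. Within each setting a gap was also present: unmarked windows had 53.5% GC in coding sequence, 48.4% in introns and 48.5% between genes, against 51.0%, 40.4% and 40.4% in genome windows of the same 3 settings. The 6 Pho lists as a whole had 51.5%, 51.7% and 50.6% GC in degradation and 50.6%, 48.3% and 50.5% in control. The GC dependence of the libraries was not tested.

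The Pho core GCCAT, searched on both strands without regard to overlap with other words, occurred in 3201 of the unmarked windows (55.7%). It occurred in 49.0% of windows 1 kb away and in 47.2% of all 458490 windows of 300 bp in the genome. Acetylated, H3K27me3 and doubly marked windows held it in 56.8%, 56.4% and 57.3%. The gap to the genome was small once windows of like composition were set side by side. Among windows of 45 to 50% GC the core was in 55.8% of unmarked and 55.4% of genome windows, and among those of 50 to 55% GC in 58.3% and 57.7%. Among windows of 40 to 45% GC it was in 48.2% of unmarked windows and 50.8% of genome windows. In coding sequence it was in 56.2% of unmarked and 54.8% of genome windows, while in introns the values were 58.1% and 47.3%. The longer word GCCATTTT was in 2.14% of unmarked windows and in 2.80% of genome windows. GAGAG, bound by the GAGA factor, was in 35.8% of unmarked windows against 30.2% of the genome, and in 44.1% of doubly marked windows. Words rich in A and T were rarer than in the genome: GAAAA (Dsp1) was in 57.9% against 75.2%, and TAATTA, the homeodomain core, in 7.66% against 17.8%. A match is a description of the letters in the window and not a binding site.

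**Figure D3:**
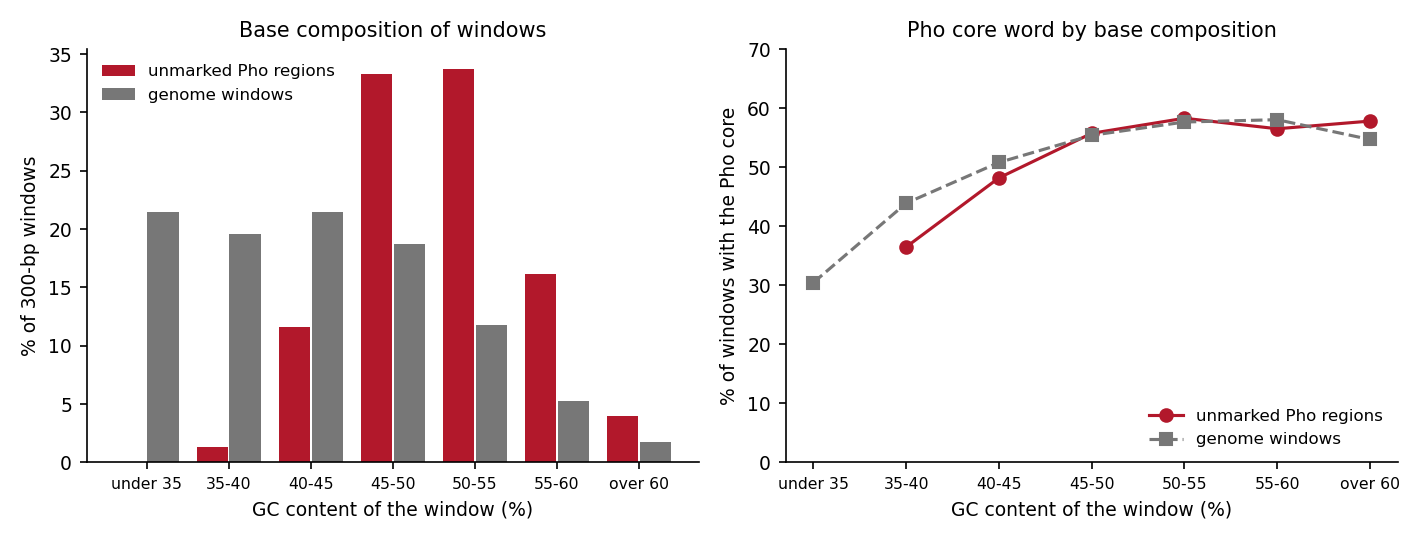
Left, percent of 300-bp windows (y axis) in each class of GC content (x axis, percent) for unmarked Pho regions and for the whole genome; right, percent of those windows with GCCAT on either strand. Unmarked windows gather at 45 to 55% GC, and at 50 to 55% GC the core was in 58.3% of unmarked and 57.7% of genome windows; no unmarked window was under 35% GC.

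Because marks were counted by list, "unmarked" covered several states in the control embryos. Of the 5747 regions, 2022 (35.2%) touched no control histone peak, 1545 (26.9%) touched 1 H3K27ac list alone, 903 (15.7%) touched 1 H3K27me3 list alone and 1277 (22.2%) touched 1 list of each. Just outside the rule were 680 regions with 2 H3K27ac lists and no H3K27me3 list and 291 with the reverse. The lists contributed unequally: H3K27ac controls 1, 2 and 3 touched 4.16%, 31.0% and 13.9% of the unmarked regions, and H3K27me3 controls 1, 2 and 3 touched 0.696%, 16.7% and 20.5%. The nearest base in at least 2 control H3K27ac lists lay a median of 1660 bp away, and 38.3% of the regions had one within 1 kb. For H3K27me3 the median was 6795 bp, and 39.8% of the regions lay over 10 kb from such a base. Across the 20 histone lists of the series, 852 unmarked regions (14.8%) lay in no peak.

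Lists that took no part in the choice were then read over the unmarked regions. In wild-type late mesoderm, H3K27ac lists 2 and 3 touched 30.7% and 1.64% of them, and they covered 23.1% and 1.29% of their bases against 18.4% and 0.735% of the genome. The late H3K27me3 lists 2 and 3 touched 9.67% and 1.44%. Both late H3K27ac lists together touched 50 regions (0.870%), against 10.5% of acetylated regions, and both late H3K27me3 lists 35 (0.609%), against 7.64% of H3K27me3 regions. In early mesoderm (stages 10 to 13) both H3K27ac lists touched 48 (0.835%), against 19.4% of acetylated regions. The late mesoderm Ubx lists R and S touched 4.37% and 5.06% of unmarked regions, and both lists together 52 (0.905%). They covered 3.56% and 3.68% of unmarked bases, against 3.15% and 3.22% of H3K27me3 region bases and 1.29% and 1.52% of the genome. Doubly marked regions were in both late Ubx lists in 29.7% of cases and acetylated ones in 2.68%. In early neurons both Ubx lists touched 940 unmarked regions (16.4%), against 71.0% of doubly marked regions, and those 2 lists covered 8.13% and 12.1% of the genome. The lists differ in length, so no ranking of tissues is drawn from these shares.

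Whether Pho peaks return at such places was measured in lists that had not chosen them. Regions were drawn 3 times from 2 control Pho lists, which gave 12825 to 17163 unmarked regions, and each was read in the control list left out and in the degradation lists, all trimmed to 11.9 Mb of peaks. Unmarked regions lay in a peak in 31.2%, 32.5% and 29.6% of cases in degradation lists 1 to 3, and in 28.4%, 25.6% and 27.96% in the control lists. All 3 degradation values were above all 3 control values (31.1% ± 1.48 and 27.3% ± 1.52, SD, n = 3 each; difference 3.82 points). The two-sided exact permutation p was 0.1, the smallest that 3 against 3 can give. With the lists as deposited the difference turned to -0.362 points (exact permutation p = 1), so its direction depended on the trimming.

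Recovery was lower at unmarked regions than at the other classes in every library. In the set drawn from all 3 control lists, unmarked regions also had the lowest median length and doubly marked regions the highest. A peak had only to touch a region for it to count, and the part of length in the order of the classes was not tested. Acetylated regions were recovered at 41.2% ± 3.04 in degradation and 35.3% ± 4.42 in control lists, H3K27me3 regions at 37.3% ± 2.51 and 31.8% ± 1.51, and doubly marked regions at 56.3% ± 6.24 and 49.15% ± 4.71 (SD, n = 3 each). The gap of unmarked to acetylated regions was -10.1 points in degradation and -8.02 points in control lists (exact permutation p = 0.4), and that to H3K27me3 regions -6.16 and -4.51 points (exact permutation p = 0.2). With the lists as deposited the gap to H3K27me3 regions was -6.83 points in degradation and -5.12 points in control lists, at the smallest exact permutation p of 0.1. Over the 5747 regions themselves, 525 (9.14%) lay in all 3 degradation Pho lists, 1401 in 2, 2244 in 1 and 1577 (27.4%) in none. The 525 had a median length of 133 bp, 12.6% of them were at least 50% repeat, and their control Pho peaks had a median mean percentile of 59.3 within the lists. The 1577 found in none had a median length of 66 bp, 5.39% were repeat-rich, and the percentile was 49.7. A longer region has more bases that a peak can touch.

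H3K27ac over unmarked regions was read in the same held-out way. It touched 2.76%, 2.57% and 15.2% of them in degradation lists 1 to 3, and 4.52%, 7.25% and 21.5% in the control lists. Degradation was lower than control in each of the 3 same-numbered pairs, replicate 3 was the highest in both conditions, and the groups overlapped (6.85% ± 7.26 and 11.1% ± 9.12, SD, n = 3 each; exact permutation p = 0.5). Without control replicate 3, whose list carries another replicate's peak names, the difference turned to 0.931 points, against -4.23 points with it; without both lists of replicate 3 it was -3.22 points. Acetylated regions stood at 48.5% ± 6.68 in degradation and 39.2% ± 13.5 in control lists. H3K27me3 touched 0.186%, 0.580% and 1.98% of the unmarked regions in the degradation lists and 1.11%, 1.19% and 16.9% in the control lists. Here too degradation was lower in each of the 3 pairs; control 3 stood apart, and the groups overlapped (0.915% ± 0.942 and 6.40% ± 9.09, SD, n = 3 each; exact permutation p = 0.4); without it the difference of -5.49 points was -0.442, and without both lists of replicate 3 it was -0.768. With 3 pairs the exact permutation p was 0.25 for either mark, the smallest it can give. Each degradation value is a mean over the 3 draws, and its same-numbered control list helped to choose the regions in the draws that kept it. Because the numbers pair these histone lists, choice and reading are not independent. Nothing is therefore read from the direction in pairs or from these p-values, for either class of region. H3K27me3 regions were touched in 66.4% ± 4.70 and 59.0% ± 23.7 of cases in degradation and control lists.

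**Figure D4:**
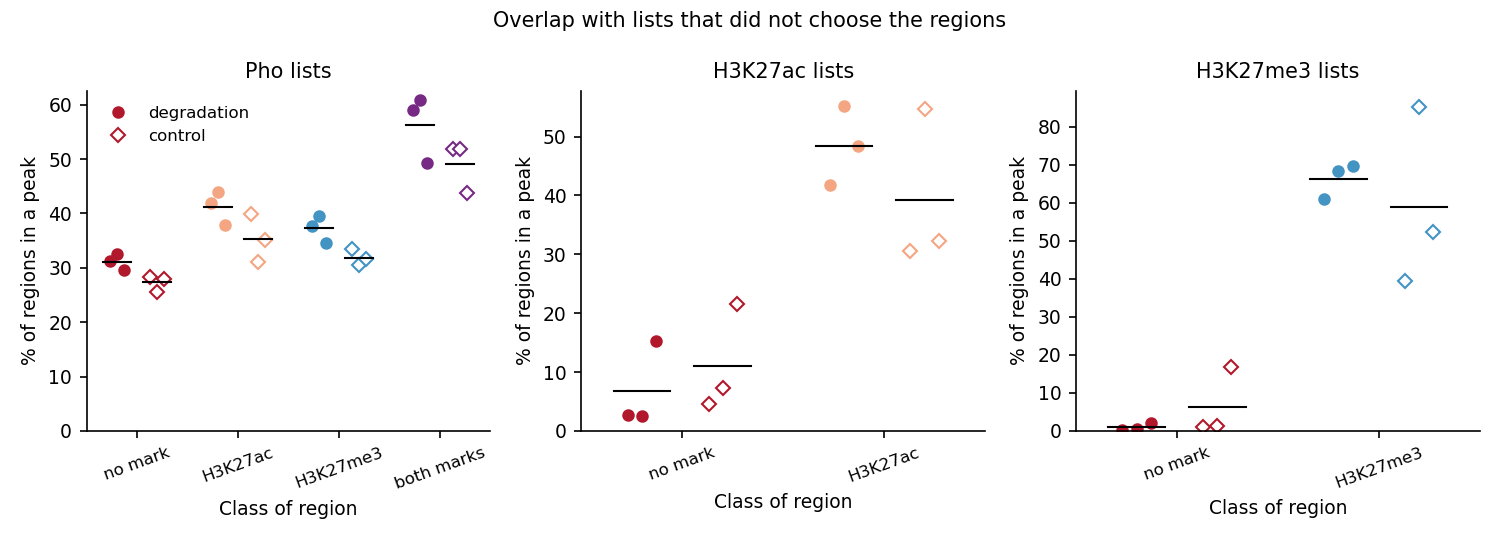
Points are single lists (filled circles degradation, open diamonds control; bars, means), with the percent of regions in a peak on the y axis and the class of region on the x axis, for lists that did not choose the regions. At regions with no mark the degradation Pho lists sit at 29.6 to 32.5% and the control Pho lists at 25.6 to 28.4%, below the other classes. In the histone panels no mark means no peak in the control lists of that mark that chose the draw.

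Pho regions were also tested one by one with limma over the 33169 stretches of at least 100 bp that lay in at least 3 of the 6 Pho lists. Over all of them, 563 (1.7%) had more Pho cover in degradation and 348 (1.05%) had less, at an adjusted p under 0.05. Of the 4416 that overlapped an unmarked region, 0 were called higher and 239 lower; the control Pho lists chose these regions, so nothing is read from that split. With lists cut to their better-scored 50%, limma called 0 of 30998 in either direction, while an unadjusted p under 0.05 was met by 564 in the higher and 407 in the lower direction. H3K27ac and H3K27me3 were called changed at 0 of 17764 (0%) and 0 of 9690 (0%) Pho regions, and hence at none of the 2193 and 1051 that overlapped an unmarked region. At an unadjusted p under 0.05 limma gave 74 higher and 20 lower for H3K27ac, and 1 and 1 for H3K27me3. Of these, regions that overlapped an unmarked one made up 3 higher and 0 lower for H3K27ac, and 1 higher and 0 lower for H3K27me3.

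The 5747 regions had 3453 nearest protein-coding genes, 24.7% of the 13968 annotated. Most of these genes, 2473, had 1 unmarked region and 102 had 5 or more. The genes with most were Myo81F with 83, Pzl with 82 and CG40813 with 50, followed by RYa with 29 and the Y-linked FDY with 28. Myo81F and Pzl are very long genes, with gene regions of 1968 and 711 kb, whereas CG40813 carried none in its own 2.88-kb gene region; these genes were named after their counts were seen. In control embryos 1548 of the nearest genes (44.8%) had H3K27ac at the start site in at least 2 of the trimmed lists, against 69.3% of genes nearest to acetylated regions and 51.2% of all genes. H3K27me3 lay in the gene region of 20.7%, against 64.7% of genes nearest to H3K27me3 regions and 17.6% of all genes. Neither mark was at 41.6% of the genes nearest to unmarked regions and at 37.3% of all genes. The same control histone lists sorted the regions into classes, so these shares are a description and nothing is read from their differences.

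H3K27ac at these genes differed between degradation and control by less than the spread between lists. It covered on average 16.1%, 18.05% and 9.02% of their start-site windows (1 kb to either side) in degradation lists and 15.9%, 19.5% and 6.68% in control lists (14.4% ± 4.75 and 14.0% ± 6.61, SD, n = 3 each). Over all genes the means were 17.99% ± 6.26 and 17.6% ± 9.38. H3K27me3 covered 1.04%, 1.60% and 1.11% of their gene regions (2 kb upstream to the gene's end) in degradation and 1.73%, 1.38% and 2.51% in control lists, with all genes at 3.17% ± 0.250 and 3.50% ± 0.0351. Pho covered 11.7%, 11.8% and 11.7% of their start-site windows in degradation and 13.4%, 10.2% and 13.9% in control lists. Degradation values lay inside the range of the control values for Pho, and the groups overlapped for both marks. No gene passed an adjusted p of 0.05 in limma for H3K27ac (0% of 12209), H3K27me3 (0% of 8109) or Pho (0% of 13108), and so none nearest to an unmarked region did.

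At an unadjusted p under 0.05, 10 of the 2985 nearest genes tested for H3K27ac were higher in degradation (0.335%) and 4 lower (0.134%), next to 0.352% and 0.115% of all genes. For H3K27me3, 4 of 2259 were higher (0.177%) and 21 lower (0.930%), next to 0.358% and 2.16% of all genes. For Pho, 44 of 3290 were higher (1.34%) and 71 lower (2.16%), next to 2.03% and 1.17% of all genes. Control lists of each antibody had helped to choose the regions, so all these shares are given as a description and nothing is read from them.

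**Figure D5:**
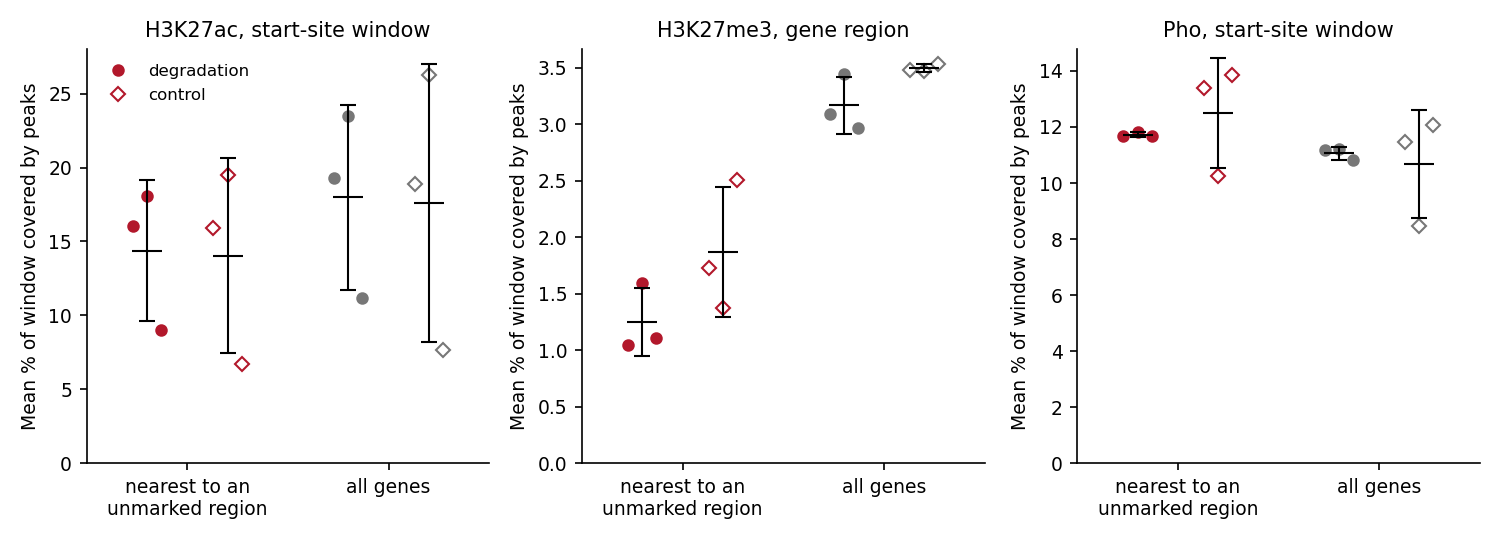
Mean percent of the window covered by peaks (y axis) for the 3453 genes nearest to an unmarked Pho region and for all genes (x axis), with 1 point per list (filled circles degradation, open diamonds control) and the mean ± SD of 3 lists in black. Degradation and control lists overlap for the nearest genes in all 3 panels, with H3K27ac at 14.4% ± 4.75 and 14.0% ± 6.61.

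Genes of the Polycomb machinery carried unmarked regions too. Of 22 Polycomb group genes, 11 (50%) had one in the gene region, against 26.8% of all genes; by length they had 4.09 per 100 kb, against 4.56 over all gene regions. The 11 were Sce (the ubiquitin ligase of PRC1), Scm, Sfmbt (the partner of Pho), Su(z)12 and escl (subunits of PRC2), Jarid2 and Pcl (accessory to PRC2), Caf1-55 (a histone-binding subunit), Kdm2, l(3)mbt and jing. Kdm2 and jing had 2 each and the others 1. The genes detailed next had some of the largest differences among the 11, so they do not stand for the others. The Pho difference at the start site ran from -26.1 points (l(3)mbt) to 20.9 points (Jarid2), with Pcl at -1.17. At the l(3)mbt start site Pho covered 0%, 11.8% and 15.6% in degradation lists and 66.6%, 12% and 26.95% in control lists. At that of Scm it covered 36.9%, 30.2% and 0% in degradation and 0%, 0% and 4.75% in control lists. Both genes had overlapping groups and adjusted p-values of 0.96 in limma. H3K27ac at the start of Caf1-55 stood at 56.3%, 92.2% and 5.10% in degradation and 32.6%, 0% and 4.50% in control lists (limma adjusted p = 1). For the 22 genes together the mean H3K27ac cover was 38.4%, 44.5% and 12.1% in degradation lists and 32.0%, 42.0% and 6.85% in control lists.

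Trithorax group genes, which oppose Polycomb silencing, had unmarked regions at 4 of 18 (22.2%): trx with 3, the chromatin remodeller kis with 2, and Snr1 and osa of the Brahma complex with 1 each. The trx start site was covered by H3K27ac at 7.10%, 11.1% and 0% in degradation and 29.9%, 0% and 2.60% in control lists, with overlapping groups (limma adjusted p = 1). Of the 8 Hox genes, abd-A alone carried one, in a gene region covered by H3K27me3 at 100%, 63.1% and 74.9% in degradation and 89.9%, 72.8% and 44.6% in control lists. Ubx carried none, and 3 H3K27me3 regions and 1 doubly marked region had it as nearest gene. The segment polarity gene en had 1 unmarked region in a gene region with 100%, 82.7% and 100% H3K27me3 cover in degradation and 92.3%, 82.6% and 68.1% in control lists. The mesoderm factor twi carried 4 in a long gene region of 65.0 kb, where all gene regions held 4.56 per 100 kb. It was the nearest gene of 0 unmarked regions. H3K27me3 covered 13.0%, 27.3% and 7.79% of the twi gene region in degradation and 16.5%, 16.9% and 6.80% in control lists. Among 10 genes of proteins that bind Polycomb response elements, psq carried 1 and pho itself none.

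Other gene groups are given beside all genes, of which 26.8% carried an unmarked region, at 4.56 per 100 kb; no test compares the groups. Among 18 neuronal differentiation genes, 12 (66.7%) carried an unmarked region, at 3.18 per 100 kb of gene regions with a median of 32.3 kb. Among 29 muscle differentiation genes 10 (34.5%) did, at 3.23 per 100 kb. Proteasome genes had the highest density of the lists with over 40 genes, with 15 of 48 (31.2%) and 9.38 per 100 kb. Cytoplasmic ribosomal protein genes had 9 of 92 (9.78%) and 2.85 per 100 kb, and mitochondrial ones 12 of 73 (16.4%) and 5.53. Chemoreceptor genes had 35 of 179 (19.6%) and, by length, 5.15 per 100 kb, a density close to that of all genes. Developmental regulators under Polycomb control had 5 of 49 (10.2%) and 1.03 per 100 kb, and 34 of the 49 were nearest to an H3K27me3 region, and the rule itself removes regions with that mark. None of the histone genes carried one, while 36 of them were nearest to an acetylated region.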

How the data were processed

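Broad-peak lists of 35 immunoprecipitates were used, 1 list for each library, grouped by the labels; 5 combined Ubx lists and the inputs were not used here. Per the submitters' processing notes, the tools were FastQC, Bowtie and MACS2 and the build was dm6; versions and parameters are not given in the sources used here. The authors deposited for each peak a fold enrichment, which is a ratio, −log10 p and −log10 q values (lowest −log10 q in any list 1.001), and a score that was not used for any test. They are the authors' own values for a single peak and served to describe, rank or trim peaks within a list. The lists hold no read counts, so the depth behind a peak is unknown.

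The members and gene lists were chosen with earlier results of these data known. Lists were compared with Ensembl genes (13968 protein-coding) and RefSeq soft-masked sequence of the same assembly. For genes and Pho regions the percent covered by peaks, after trimming the 6 lists of an antibody to equal covered length by dropping the peaks with the lowest −log10 q, was tested as the arcsine of its square root with limma 3.58.1 (R 4.3.3, trend, Benjamini-Hochberg over all features tested); the fit was tested on simulated data. Held-out shares were compared with two-sided exact permutation tests over 3 against 3 lists. Deviations of same-numbered lists from their group means correlated at 0.438, 0.598 and 0.587 for H3K27ac and 0.298, 0.36 and 0.349 for H3K27me3 over genes, so the numbers pair these lists; for Pho they do not. Named regions are the first 10 with under 10% and the first 5 with at least 50% repeat bases, of at least 100 bp, outside Y and 2R, by mean percentile of −log10 q. Named genes are Hox, Polycomb and Trithorax group genes and a short list of lineage genes that carry an unmarked region; psq, pho, Ubx and the genes with most regions were named after their values were seen. The early mesoderm Ubx list 2, like H3K27ac control 3, carries another replicate's peak names. The second draw, the windows of like composition, the X shares and the coding genes were added after values had been seen. Of the names in the gene lists 4 did not match. Python 3.11.15 with numpy 2.4.6, pandas 2.3.3 and scipy 1.17.1 did the rest.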

Additional observations from a re-analysis of the deposited data

How the results depend on the processing

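Each of 12 results was recomputed under its alternatives, and 118 of 144 values kept their direction or stayed within 1.5 times the count (within the 95% binomial interval for a share). The number of unmarked regions (5747) was 2022 with a mark in none of the 3 control lists, 2439 at 100 bp or more, and 1245 where lists were cut to their better-scored 50%. Leaving out 1 control list in turn moved it between 5982 and 17163, the highest without control Pho replicate 2; without control Pho replicates 1 and 3 it was 15441 and 12825. The share within 1 kb of a start site (16.7%) was 17.8% when 50% of a region had to lie in a peak and 15.2% with a mark in no list, and 15.3% to 21.0% with 1 list left out. The repeat share (9.03%) was 10.2% and 6.01% under these same alternatives and 21.5% in the better-scored 50%, and 6.60% to 13.7% with 1 list left out.

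The Pho recovery difference of 3.82 points was -0.362 in lists as deposited and 2.20 to 4.97 with 1 list left out. The H3K27ac difference of -4.23 points ran from -8.42 to 0.931, and the H3K27me3 difference of -5.49 points from -10.4 to -0.442. Pairing the lists by number (replicate block) left these 3 differences as they were, with an exact permutation p of 0.25, the smallest it can give. For both histone marks the same-numbered control lists helped to choose the regions, so nothing is read from the direction of their differences. Leaving out both lists of a number, added after the data were seen, gave -5.47 to -3.22 points for H3K27ac and -7.92 to -0.768 for H3K27me3. Pho regions called by limma numbered 911; they were 1502 with lists as deposited, 0 in the better-scored 50%, 0 with a replicate block (an unadjusted p under 0.05 was met by 1608 in the higher and 812 in the lower direction, though the Pho numbers share only a label), and 1134 to 1617 with 1 list left out. H3K27me3 calls on Pho regions were 0 to 6 with 1 list left out, the 6 without control replicate 2. The block changed no call of the other limma results, and no gene was called under any alternative run. The cause of these shifts was not tested. Of the control Pho peaks 69.1% to 74.6% had a −log10 q under 2, so the intersection rests largely on weakly scored peaks, and no read depth is known.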
